A study of Mus musculus with 4 samples.

Results

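The 10 genes described here are those of the liver X receptor (LXR) pathway and of cholesterol export: the receptors Nr1h2 and Nr1h3, the exporters Abca1 and Abcg1, and Apoe, Npc1, Npc2, Mylip, Lpcat3 and Plin2. They were chosen by symbol from the 54532 genes of the deposited tables, all 10 were found, and all 10 reached a mean of 1 CPM (reads of a gene scaled to a fixed library total) over the libraries, as did 11640 genes in all. RNA was sequenced from RAW 264.7 cells, a mouse macrophage line, in 4 groups of 1 library each. These were Hnrnpul1-/- cells (knockout, KO) and wild-type cells (WT), each exposed for 10 h to 100 ng/ml of LPS (lipopolysaccharide, the bacterial product that activates TLR4), and untreated KO and WT cells. The labels do not state whether the knockout line is a single clone.

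LXRs are nuclear receptors that are activated by oxysterols and by sterol precursors, and they bind DNA as partners of the retinoid X receptors. In macrophages they are known for turning on the genes that move surplus cholesterol out of the cell, for limiting its uptake, and for restraining inflammatory genes. Cholesterol from ingested lipoproteins leaves the lysosome through Npc2 and Npc1, is stored as ester in lipid droplets coated by Plin2, or is exported by Abca1 and Abcg1 to lipoprotein particles.

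Total counts ranged from 17045432 to 17909549 per library. Hnrnpul1, the targeted gene, had 350 reads in LPS-treated KO against 3114 in LPS-treated WT, and 447 reads in untreated KO against 5086 in untreated WT, so its level followed the genotype labels. All 8 macrophage markers listed had more than 3 reads in every library. Of 13 markers of other cell types, 10 or 11 were at 0 in each library, and only Pecam1 and Cdh5 had more than 3 reads. Levels below are TMM-normalized CPM, that is CPM corrected for library composition, and each log2 ratio is followed by its 95% counting interval in brackets. No group had a replicate, so these intervals cover counting error only and each comparison is one of single libraries, with no test. A gene is said to be called where its ratio was 2-fold or more and its interval left out no change, and other differences are given as values.

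Promoter windows of 300 bases (250 before and 50 after the annotated start, RefSeq, GRCm38.p6) were at hand for 8 of the 10 genes. They were searched on both strands for direct repeats of the nuclear receptor hexamer, with 4 bases between them as LXR is known to bind (DR4, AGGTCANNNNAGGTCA) or 1 base as the PPAR receptors are known to bind (DR1, AGGTCANAGGTCA), with up to 2 mismatches in the 12 fixed bases. No window of the 8 genes held DR4 by this rule, which 3.02% of all 32851 windows met, and Plin2 held DR1, as did 3.86% of all windows. With 3 mismatches allowed, a limit chosen after the Abca1 window was read, Abca1 held DR4 on the opposite strand from -67 to -52, and so did 21.9% of all windows. The E-box CACGTG, also chosen after the windows were read, stood in the windows of Abca1 and Plin2 and in 7.15% of all windows. Abca1 and Plin2 are shown because both were called higher with LPS in each genotype and both hold matches. The first window is chr4:53159846-53160145 and the second chr4:86670010-86670309, both on the minus strand. Capitals mark the matches, which in Abca1 are the E-box and then DR4 with 3 mismatches and in Plin2 are DR1 and then the E-box.
Abca1: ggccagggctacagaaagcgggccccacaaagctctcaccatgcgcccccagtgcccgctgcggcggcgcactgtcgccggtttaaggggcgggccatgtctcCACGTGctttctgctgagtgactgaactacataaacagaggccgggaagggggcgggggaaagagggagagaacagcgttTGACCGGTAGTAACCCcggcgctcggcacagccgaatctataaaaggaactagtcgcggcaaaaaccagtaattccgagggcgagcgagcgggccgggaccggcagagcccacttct
Plin2: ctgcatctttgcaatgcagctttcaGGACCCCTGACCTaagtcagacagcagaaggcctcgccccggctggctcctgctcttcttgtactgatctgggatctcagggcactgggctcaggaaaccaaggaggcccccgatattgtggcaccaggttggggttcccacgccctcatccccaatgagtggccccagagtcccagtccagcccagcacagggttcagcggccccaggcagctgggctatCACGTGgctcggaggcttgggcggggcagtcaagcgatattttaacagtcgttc
In the strand of the motif the Abca1 match reads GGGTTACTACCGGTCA and the Plin2 match from -225 to -213 reads AGGTCAGGGGTCC. A match describes the letters of a window and is not evidence that a factor binds there.

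With LPS, Abca1, Npc2 and Plin2 were higher in both genotypes and none of the 10 genes was called lower. In KO, 3 of 10 genes were called, beside 23.6% of all tested genes (11.6% higher and 12.0% lower). In WT the same 3 genes were called, beside 21.4% of all tested genes (11.2% higher and 10.1% lower). Higher in both genotypes were 9.66% of all tested genes. The median log2 ratio of the 10 genes was 0.55 in KO and 0.67 in WT, where the medians of all tested genes were -0.020 and -0.0039. Between genotypes, none of the 10 genes reached 2-fold with or without LPS. In bulk RNA, fewer cells of a type and less RNA per cell cannot be told apart.

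**Figure D1:**
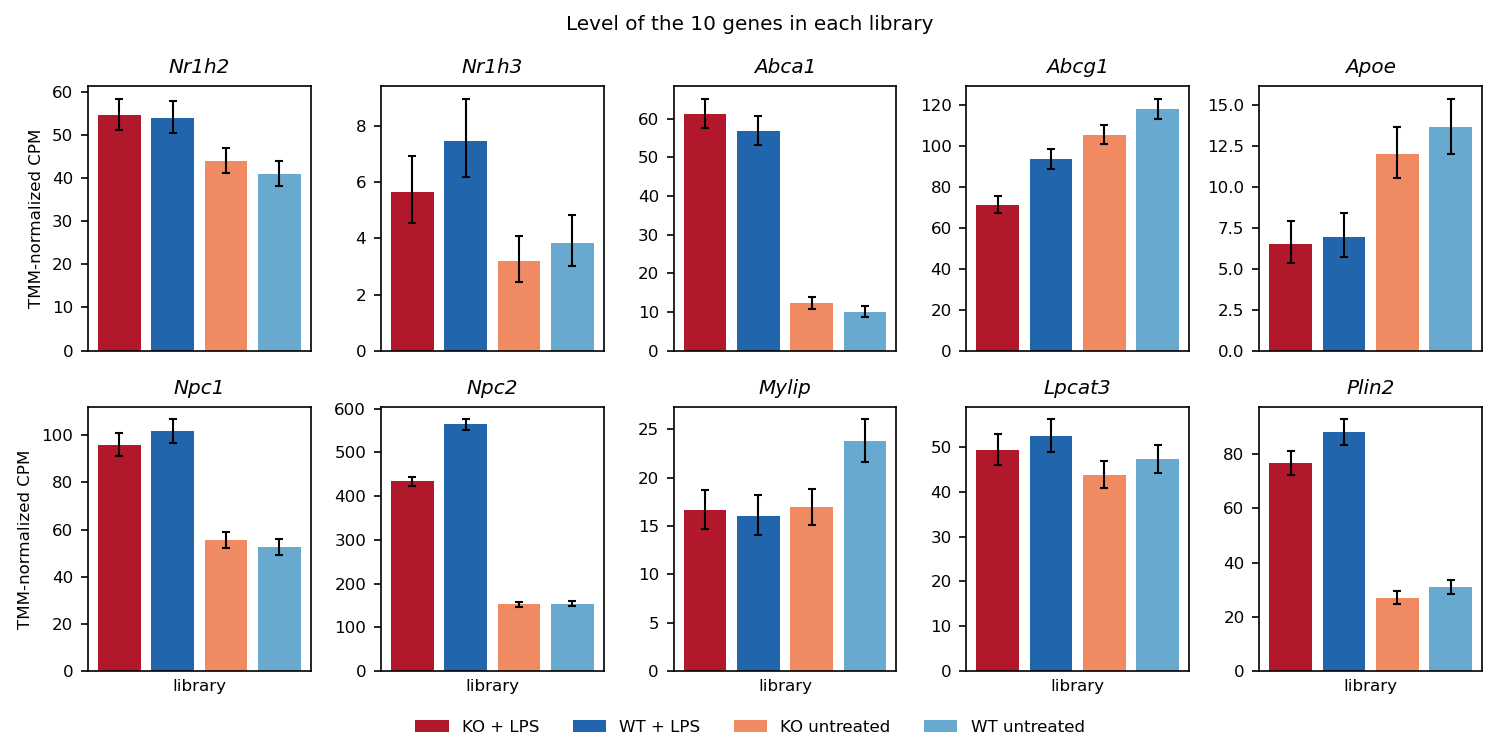
Level of each of the 10 genes in TMM-normalized CPM (vertical axes, each from 0), with 1 bar per library in the order LPS-treated KO, LPS-treated WT, untreated KO and untreated WT; error bars are exact 95% Poisson intervals and cover counting error only. Abca1, Npc2 and Plin2 stand higher in both LPS-treated libraries than in both untreated ones, while Abcg1 and Apoe stand lower.

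Neither receptor was called with LPS, and Nr1h2 was the more abundant of them. Nr1h2, which encodes LXR beta (ENSMUSG00000060601, chromosome 7, 44549616 to 44553951, minus strand, GRCm38), had 881 reads in LPS-treated KO and 852 in untreated KO, and 830 in LPS-treated WT and 779 in untreated WT. Its log2 ratio with LPS was 0.31 (0.18 to 0.45) in KO and 0.40 (0.26 to 0.54) in WT, well short of 2-fold. Scaled by total counts, the Nr1h2 ratio was 0.0035 in KO and 0.10 in WT, so its size depended on the scaling. Nr1h3, which encodes LXR alpha (ENSMUSG00000002108, chromosome 2, 91184061 to 91202834, minus strand), had few reads, with 91 reads in LPS-treated KO and 62 in untreated KO, and 115 in LPS-treated WT and 73 in untreated WT. In each genotype the LPS-treated library had more Nr1h3 reads, and the log2 ratio was 0.82 (0.34 to 1.31) in KO and 0.96 (0.53 to 1.41) in WT. Both ratios missed the 2-fold rule, and their wide intervals reach past it. A transcript on the same strand, Gm13783, overlaps 6873 bases of Nr1h3 and had 4 to 10 reads per library, so reads of the shared stretch cannot be told apart.

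Per kilobase of the deposited gene length, Nr1h2 exceeded Nr1h3 in every library. Here and below, intervals of ratios per kb come from counts alone and leave out any error in that length. The ratio of Nr1h2 to Nr1h3 in CPM per kb was 7.26 (5.85 to 9.11) in LPS-treated KO and 10.3 (7.96 to 13.6) in untreated KO. In WT the same ratio was 5.41 (4.45 to 6.64) with LPS and 8.002 (6.29 to 10.3) without. LXR beta was therefore the more abundant receptor transcript in all 4 libraries.

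Abca1, the membrane transporter that hands cholesterol and phospholipid to apolipoprotein A-I, had the highest LPS ratio of the 10 genes. Abca1 (ENSMUSG00000015243, chromosome 4, 53030787 to 53159895, minus strand) had 987 reads in LPS-treated KO and 238 in untreated KO, and 874 in LPS-treated WT and 192 in untreated WT. In normalized levels this was 61.3 CPM with LPS and 12.3 CPM without in KO, and 56.9 CPM with LPS and 10.1 CPM without in WT. Both LPS-treated libraries stood far above both untreated ones. Abca1 was 4.99-fold higher in KO (log2 ratio 2.32, 2.11 to 2.53) and 5.63-fold higher in WT (2.49, 2.27 to 2.73). Of all tested genes, 95.8% had a lower LPS ratio in KO and 96.3% in WT. From the deposited FPKM, as log2(value + 1), which understates the change of low genes, the Abca1 log2 ratio was 1.66 in KO and 1.70 in WT.

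Abcg1, which moves cholesterol to high-density lipoprotein particles, did not follow Abca1. Abcg1 (ENSMUSG00000024030, chromosome 17, 31057698 to 31115777, plus strand) had 1148 reads in LPS-treated KO and 2041 in untreated KO, and 1434 in LPS-treated WT and 2243 in untreated WT. Its level was 71.3 CPM with LPS and 105 CPM without in KO, and 93.4 CPM with LPS and 118 CPM without in WT. Both untreated libraries thus held more Abcg1 than both LPS-treated libraries. The log2 ratios of -0.56 (-0.67 to -0.46) in KO and -0.34 (-0.43 to -0.24) in WT lay below 0 beyond counting error and under the 2-fold size.

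The balance of the exporters differed between treatments. Per kb, Abcg1 stood above Abca1 by 2.96 times (2.72 to 3.23) in LPS-treated KO and by 21.9 times (19.1 to 25.1) in untreated KO. In WT, Abcg1 stood above Abca1 by 4.18 times (3.84 to 4.55) with LPS and by 29.8 times (25.7 to 34.7) without. Abcg1 was the more abundant exporter transcript in all 4 libraries, by a smaller margin with LPS in each genotype. At each treatment the counting intervals of KO and WT did not overlap, and the KO ratio was the smaller.

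**Figure D2:**
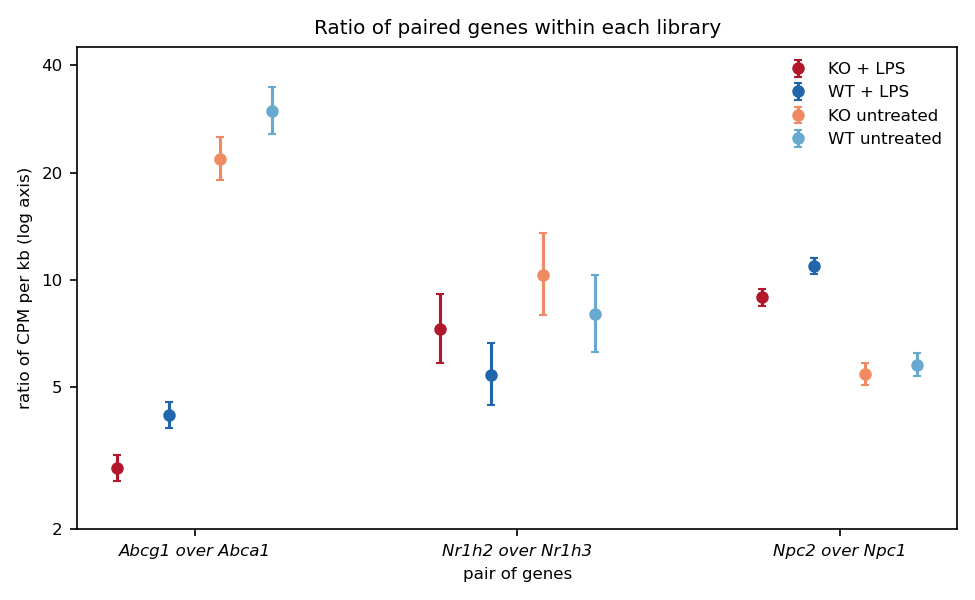
Ratio of CPM per kb (vertical log axis) for Abcg1 over Abca1, Nr1h2 over Nr1h3 and Npc2 over Npc1 within each of the 4 libraries; error bars are exact 95% counting intervals. Abcg1 over Abca1 lies at 2.96 and 4.18 in the LPS-treated libraries and at 21.9 and 29.8 in the untreated ones.

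Apoe, the apolipoprotein that macrophages secrete with exported lipid and an established LXR target, had few reads throughout, and its LPS-treated levels lay below the untreated ones by just under 2-fold. Apoe (ENSMUSG00000002985, chromosome 7, 19696109 to 19699188, minus strand) had 105 reads in LPS-treated KO and 233 in untreated KO, and 107 in LPS-treated WT and 259 in untreated WT. Its level was 6.52 CPM with LPS and 12.03 CPM without in KO, and 6.97 CPM with LPS and 13.6 CPM without in WT. The LPS-treated libraries lay close together and below both untreated ones. The log2 ratio was -0.88 (-1.23 to -0.55) in KO and -0.97 (-1.31 to -0.64) in WT.

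The lysosomal cholesterol transfer proteins both had more reads with LPS. Npc2, the soluble protein that binds cholesterol in the lysosome (ENSMUSG00000021242, chromosome 12, 84754562 to 84773152, minus strand), had 6992 reads in LPS-treated KO and 2962 in untreated KO, and 8655 in LPS-treated WT and 2934 in untreated WT. Its level was 434 CPM with LPS and 153 CPM without in KO, and 564 CPM with LPS and 154 CPM without in WT. The untreated libraries were alike, and both LPS-treated libraries stood well above them, with WT the highest. Npc2 was 2.84-fold higher with LPS in KO (log2 ratio 1.51, 1.44 to 1.57) and 3.65-fold higher in WT (1.87, 1.81 to 1.93).

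Npc1, the membrane protein that takes cholesterol from Npc2 (ENSMUSG00000024413, chromosome 18, 12189693 to 12236400, minus strand), had 1545 reads in LPS-treated KO and 1075 in untreated KO, and 1561 in LPS-treated WT and 1000 in untreated WT. Its LPS log2 ratio of 0.79 (0.68 to 0.90) in KO and 0.95 (0.83 to 1.07) in WT missed the 2-fold size. The protein-coding gene Rmc1 overlaps 305 bases of Npc1 on the opposite strand, with 468 to 681 reads per library, and the strand setting of the counting is not stated in the labels. Per kb, Npc2 stood above Npc1 by 8.93 times (8.45 to 9.44) in LPS-treated KO and 5.43 times (5.07 to 5.83) in untreated KO. In WT, Npc2 stood above Npc1 by 10.9 times (10.4 to 11.5) with LPS and 5.79 times (5.38 to 6.22) without.

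Plin2, the coat protein of lipid droplets, was higher with LPS to nearly the same extent in both genotypes. Plin2 (ENSMUSG00000028494, chromosome 4, 86648386 to 86670060, minus strand) had 1234 reads in LPS-treated KO and 524 in untreated KO, and 1351 in LPS-treated WT and 588 in untreated WT. Its level was 76.6 CPM with LPS and 27.1 CPM without in KO, and 88.0 CPM with LPS and 30.95 CPM without in WT. Plin2 was 2.83-fold higher in KO (log2 ratio 1.5, 1.35 to 1.65) and 2.84-fold higher in WT (1.51, 1.37 to 1.65). The difference between these ratios was -0.0050 (-0.21 to 0.20).

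Mylip and Lpcat3, the remaining LXR targets, were not called with LPS in either genotype. Mylip, a ubiquitin ligase that limits lipoprotein uptake (ENSMUSG00000038175, chromosome 13, 45389742 to 45412022, plus strand), had 268 reads in LPS-treated KO and 328 in untreated KO, and 246 in LPS-treated WT and 451 in untreated WT. Untreated WT stood above the other 3 libraries, at 23.7 CPM, where the others lay between 16.02 and 16.9 CPM. The Mylip log2 ratio with LPS was -0.025 (-0.26 to 0.21) in KO and -0.57 (-0.80 to -0.34) in WT. Lpcat3, which builds arachidonate into membrane phospholipids (ENSMUSG00000004270, chromosome 6, 124663027 to 124704418, plus strand), had 795 reads in LPS-treated KO and 848 in untreated KO, and 805 in LPS-treated WT and 899 in untreated WT. Its LPS log2 ratio was 0.17 (0.032 to 0.31) in KO and 0.15 (0.0088 to 0.29) in WT. These signs turned round with scaling by total counts, to -0.14 in KO and -0.15 in WT. Emg1 overlaps 334 bases of Lpcat3 on the opposite strand with 3650 to 4302 reads per library, and with no stated strand setting the reads of the shared stretch cannot be told apart.

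With the smaller size of 1.5-fold, Nr1h3 and Npc1 were added to the genes higher with LPS and Apoe to those lower, in each genotype. This made 6 of 10 genes in each genotype. At that size 40.3% of all tested genes were called in KO (19.3% higher and 21.0% lower) and 38.1% in WT (18.9% higher and 19.2% lower). Scaling by total counts put the median LPS log2 ratio of all tested genes at -0.33 in KO and -0.30 in WT. On that scale Apoe passed the 2-fold rule as lower in both genotypes, giving 3 of the 10 genes higher and 1 lower in each genotype.

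**Figure D3:**
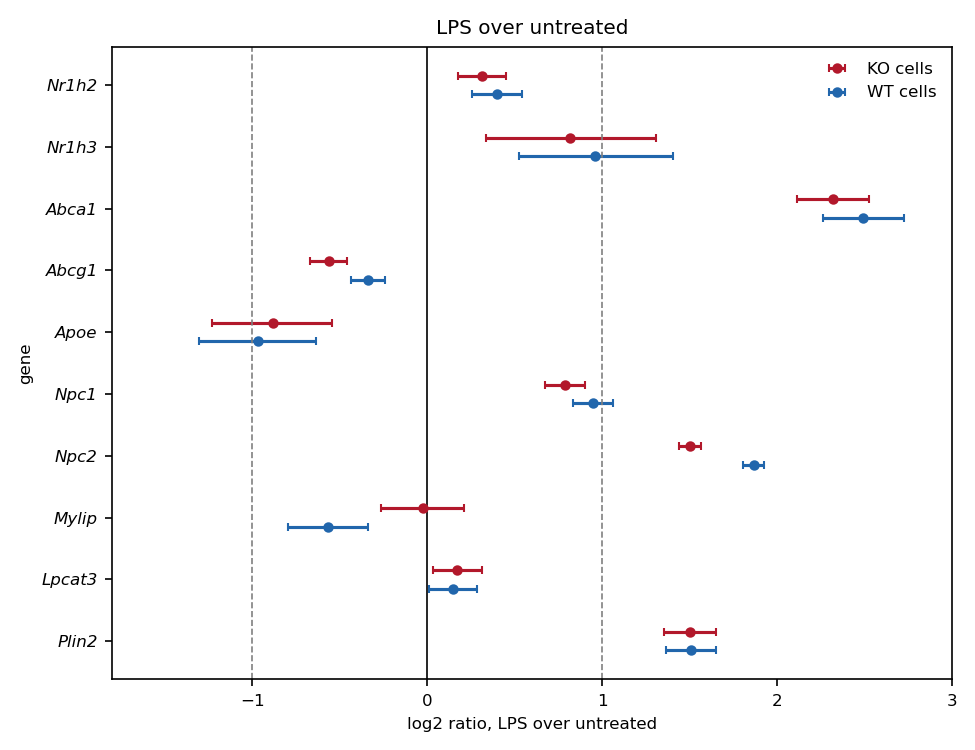
Log2 ratio of LPS-treated over untreated cells (horizontal axis) for the 10 genes in KO and WT cells, with exact 95% counting intervals; dashed lines mark 2-fold. Abca1, Npc2 and Plin2 lie wholly beyond 2-fold in both genotypes, and Abcg1 and Apoe lie wholly below 0.

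**Figure D4:**
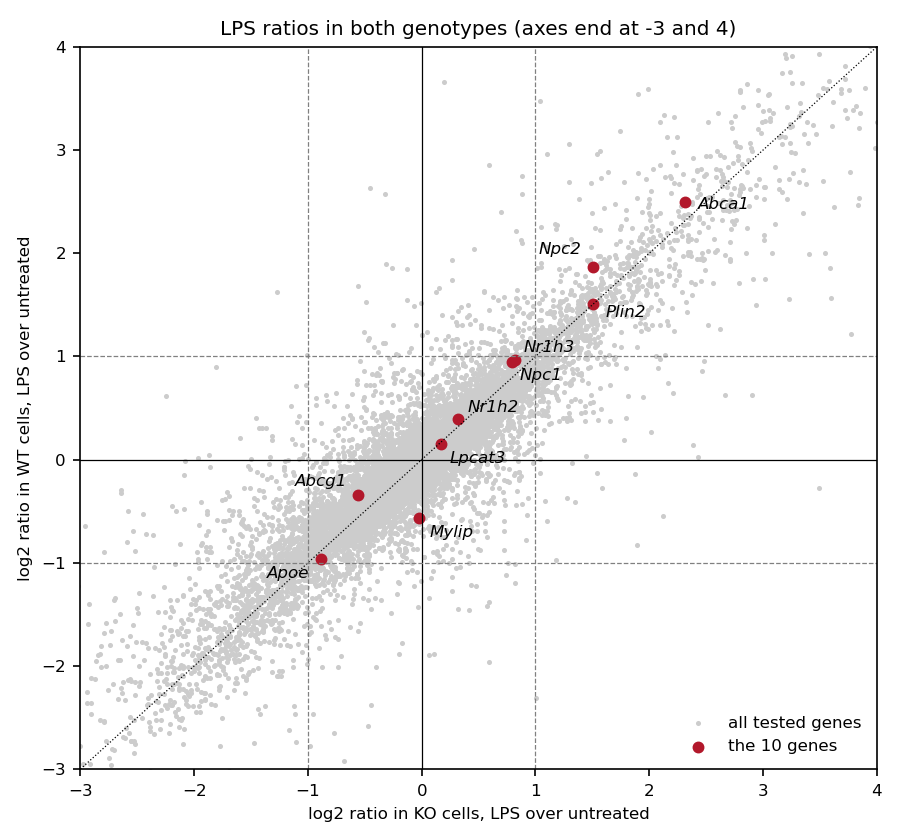
Log2 LPS ratio in KO (horizontal axis) against that in WT (vertical axis) for 11640 tested genes in grey and the 10 genes in red; dashed lines mark 2-fold, the dotted line marks equal ratios, and 365 genes lie outside the axes. Mylip and Npc2 lie off the dotted line on opposite sides.

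The order of the 10 genes by level per kb changed with LPS. The order within a library depends on the deposited gene lengths, and the counting intervals leave out any error in them. In untreated KO the order was Npc2 (28.1 CPM per kb), Abcg1, Lpcat3, Nr1h2, Plin2, Apoe, Mylip, Npc1, Nr1h3 and Abca1 (1.19 CPM per kb). In untreated WT, Abcg1 led (29.04 CPM per kb) and Abca1 was again last (0.98 CPM per kb). In LPS-treated KO the order was Npc2 (79.9 CPM per kb), Plin2, Abcg1, Nr1h2, Lpcat3, Npc1, Abca1 (5.92 CPM per kb), Mylip, Apoe and Nr1h3 (2.25 CPM per kb), and the order in LPS-treated WT was the same. Neighbours that did not differ beyond counting error were Nr1h2 and Lpcat3 in 3 libraries (all but untreated WT), Apoe and Mylip in both untreated libraries, and Abcg1 and Npc2 in untreated WT. The same held for Mylip and Npc1 and for Nr1h3 and Abca1 in untreated KO, Abcg1 and Nr1h2 in LPS-treated KO, and Abca1 with Mylip and Apoe with Nr1h3 in LPS-treated WT. Abca1 exceeded 40.9% of tested protein-coding genes per kb in LPS-treated KO and 11.0% in untreated KO. In WT it exceeded 38.2% with LPS and 9.32% without.

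The genotype comparisons ask how levels differed where Hnrnpul1, a nuclear RNA-binding protein, was disrupted. No gene of the 10 was called, beside 3.49% of all tested genes under LPS (1.66% higher and 1.83% lower) and 2.01% untreated (1.15% higher and 0.859% lower). At the 1.5-fold size there was also none of the 10, beside 8.48% under LPS and 4.89% untreated. The median log2 ratio of the 10 genes, KO to WT, was -0.091 under LPS and -0.14 untreated, where the medians of all tested genes were 0.0013 and 0.0068.

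Among the smaller genotype differences, 3 of the 10 genes had intervals wholly below 0 under LPS (Abcg1, Npc2 and Plin2) and none above, beside 20.1% of all tested genes below and 20.1% above. Untreated, 3 lay below (Abcg1, Mylip and Plin2) and 1 above (Abca1), beside 15.2% below and 15.8% above. Abcg1 and Plin2 lay below 0 beyond counting error in both treatments. Abcg1 stood at 71.3 CPM in KO against 93.4 CPM in WT under LPS, a log2 ratio of -0.39 (-0.50 to -0.28), and at 105 CPM in KO against 118 CPM in WT untreated, a ratio of -0.16 (-0.25 to -0.077). The Plin2 log2 ratios were -0.20 (-0.31 to -0.087) under LPS and -0.19 (-0.37 to -0.022) untreated. Of all tested genes, 7.14% had intervals below 0 in both treatments.

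Npc2 differed between genotypes under LPS, with 434 CPM in KO against 564 CPM in WT (log2 ratio -0.38, -0.42 to -0.33). Untreated, Npc2 had 153 CPM in KO and 154 CPM in WT (-0.014, -0.088 to 0.060). Mylip showed the opposite arrangement, with a log2 ratio of 0.055 (-0.20 to 0.31) under LPS and -0.49 (-0.70 to -0.28) untreated. The Abca1 ratio was 0.11 (-0.026 to 0.24) under LPS, within counting error, and 0.28 (0.0014 to 0.56) untreated, with an interval that barely left out 0. The Nr1h3 ratio was -0.41 (-0.82 to 0.0030) under LPS and -0.26 (-0.78 to 0.24) untreated, within counting error. Nr1h2, Apoe, Npc1 and Lpcat3 had intervals that included 0 in both treatments, with ratios between -0.18 and 0.10.

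**Figure D5:**
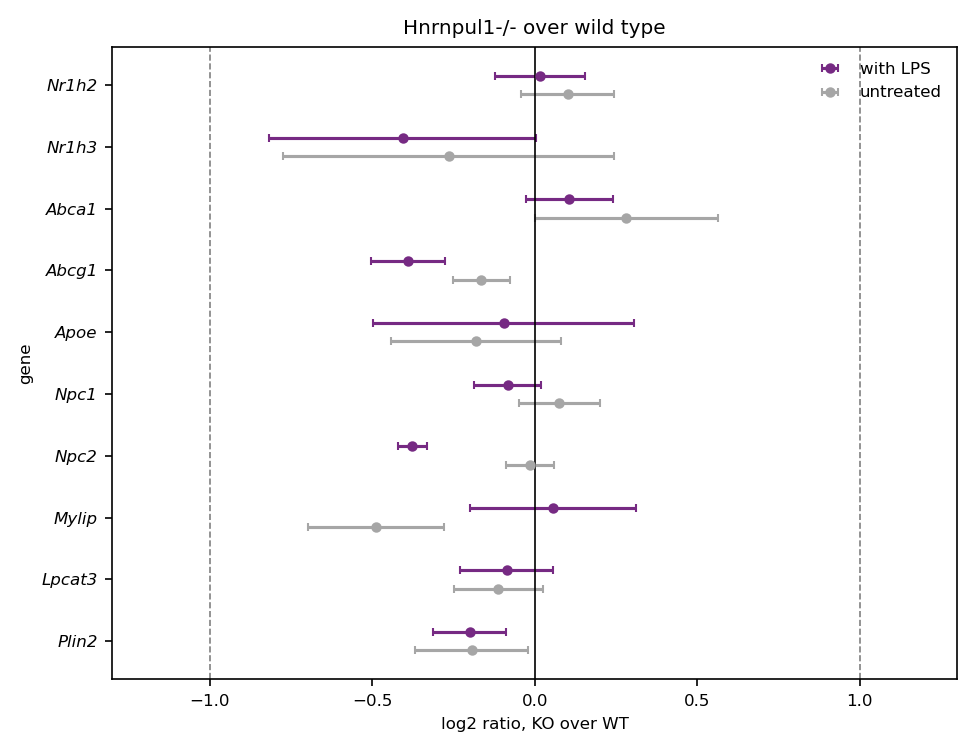
Log2 ratio of KO over WT (horizontal axis) for the 10 genes with LPS and untreated, with exact 95% counting intervals; dashed lines mark 2-fold. All points lie within 2-fold, with Npc2 and Abcg1 lowest beyond counting error under LPS and Mylip lowest untreated.

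The LPS ratio in KO minus that in WT was not called for any of the 10 genes, beside 3.02% of all tested genes (1.19% higher and 1.84% lower). The largest difference in size was that of Mylip, at 0.54 (0.22 to 0.87), with 94.4% of tested genes below it. Npc2 had -0.36 (-0.45 to -0.28) and Abcg1 -0.23 (-0.37 to -0.084), so 1 interval lay above 0 and 2 below, beside 13.9% of all tested genes above and 15.7% below. For the other 7 genes the interval included 0, and Abca1 had -0.18 (-0.48 to 0.13).

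Levels of macrophage genes also moved between the libraries. The 8 macrophage markers summed to 3014 CPM in LPS-treated KO and 2648 CPM in untreated KO, and to 5330 CPM in LPS-treated WT and 3156 CPM in untreated WT. The most abundant of them in every library was Lyz2, lysozyme, at 1245 CPM with LPS and 1113 CPM without in KO, and 3334 CPM with LPS and 1587 CPM without in WT. Of the 8 markers, Adgre1 and Itgam were called higher with LPS in both genotypes, and Lyz2 was called higher in WT. Under LPS, Lyz2 was called lower in KO than in WT (log2 ratio -1.42). The 13 markers of other cell types summed to 6.40 and 3.20 CPM in LPS-treated and untreated KO, and to 7.36 and 8.58 CPM in LPS-treated and untreated WT. Pecam1, an endothelial and leukocyte adhesion molecule, was the only one of them tested, with 53 reads in untreated KO against 158 in untreated WT. It was called lower in untreated KO than in untreated WT (log2 ratio -1.60), and its LPS ratio in KO minus that in WT was called higher (1.31). The part of these shifts in the log2 ratios of the 10 genes was not tested.

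The genes that work with LXR were described from lists. Of 15 LXR partners and cofactors, 14 were tested, of which 1 was higher and 2 were lower with LPS in each genotype. Of all tested genes, 11.6% were higher and 12.0% lower in KO, and 11.2% higher and 10.1% lower in WT. The list medians were 0.0045 in KO and -0.14 in WT, where those of all tested genes were -0.020 and -0.0039. Rxra, the retinoid X receptor alpha that pairs with LXR, fell to 30 reads in LPS-treated KO, against 156 in untreated KO, and to 35 reads in LPS-treated WT, against 172 in untreated WT. Its log2 ratios were -2.11 (-2.73 to -1.54) in KO and -1.99 (-2.56 to -1.46) in WT. Nr0b2, an orphan receptor that represses other nuclear receptors, was also lower (-1.44 in KO and -1.33 in WT). Ncoa2, a nuclear receptor coactivator, was higher (1.83 in KO and 1.69 in WT), and Tbl1x, a subunit of the corepressor complex, had ratios of 0.76 and 0.53. No gene of this list was called between genotypes.

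Of 16 other LXR target genes, 6 were tested. Scd1, a fatty acid desaturase, was lower with LPS in KO (-1.54) and WT (-1.36), and Scd2 was lower in KO (-1.19) with -0.97 in WT. Lpl, lipoprotein lipase, stood at 2886 CPM with LPS and 1339 CPM without in KO, and at 2653 CPM with LPS and 1431 CPM without in WT. This passed the 2-fold size in KO (1.11) and not in WT (0.89). Pltp, the phospholipid transfer protein, had 15.5 CPM in KO against 29.9 CPM in WT under LPS (-0.95, -1.18 to -0.72), and its LPS log2 ratio was -0.69 in KO and -0.060 in WT. The list medians with LPS were -0.49 in KO and -0.16 in WT, where those of all tested genes were -0.020 and -0.0039. The other 10 targets were under the filter, among them Apoc1, Apoc2, Apoc4, Abcg5, Abcg8 and Mertk with 0 or 1 read in each library, and Arl4c with 0 reads in both LPS-treated libraries and 6 in both untreated ones.

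Of 8 enzymes that make or use up LXR ligands, 2 were tested. Cyp27a1, a sterol hydroxylase of mitochondria, had log2 ratios with LPS of -0.47 in KO and -0.68 in WT. Ch25h, cholesterol 25-hydroxylase, had 1 read in LPS-treated KO and 0 in the other 3 libraries.

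Of 11 genes of cholesterol esters and intracellular transfer, 10 were tested, of which 4 were higher with LPS in KO and 3 in WT and none was lower. Of all tested genes, 11.6% were called higher in KO and 11.2% in WT. Soat2, an acyltransferase that esterifies cholesterol, had 185 reads in LPS-treated KO and 44 in untreated KO, and 121 in LPS-treated WT and 37 in untreated WT (log2 ratios 2.34 and 2.02). Stard3, a late endosomal sterol carrier, was higher in KO (log2 ratio 1.49) and WT (1.32), as was Gramd1b, a sterol carrier at contacts with the plasma membrane (1.26 in KO and 1.15 in WT). Gramd1a was higher in KO (1.41) with 0.77 in WT, and under LPS it had 169 CPM in KO against 98.6 CPM in WT (0.78, 0.69 to 0.87).

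Of 11 genes of lipid droplet metabolism, 8 were tested, of which 2 were higher with LPS in KO and 3 in WT. This stands beside 11.6% of all tested genes called higher in KO and 11.2% in WT. Dgat2, which makes triglyceride, was at 23.8 CPM with LPS and 2.07 CPM without in KO, and at 12.6 CPM with LPS and 1.95 CPM without in WT. Its log2 ratios were 3.53 (3.06 to 4.04) in KO and 2.70 (2.18 to 3.25) in WT. Hilpda, a lipid droplet protein that inhibits triglyceride breakdown, was higher in KO (2.26) and WT (1.83). Abhd5, the activator of adipose triglyceride lipase, was higher in WT (1.07) with 0.75 in KO, and Lipe, hormone-sensitive lipase, had 0.55 in KO and 0.70 in WT. The list medians were 0.36 in KO and 0.67 in WT, where those of all tested genes were -0.020 and -0.0039.

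Among 11 lipoprotein uptake genes, 7 were tested. With LPS, 2 were called higher and 1 lower in KO, and 2 higher and 0 lower in WT. Of all tested genes, 11.6% were called higher and 12.0% lower in KO, and 11.2% higher and 10.1% lower in WT. Msr1, a scavenger receptor for modified lipoproteins, had 6350 reads in LPS-treated KO and 40 in untreated KO, and 5012 in LPS-treated WT and 10 in untreated WT. Its log2 ratio with LPS was 7.58 (7.13 to 8.06) in KO and 9.28 (8.40 to 10.3) in WT, and untreated KO was called higher than untreated WT (1.97, 0.95 to 3.14). The Msr1 LPS ratio in KO minus that in WT was called lower, as were 1.84% of all tested genes. Cxcl16, a scavenger receptor for oxidized lipoprotein that is also a chemokine, was higher in KO (log2 ratio 2.36) and WT (2.34). Scarb1, a receptor for high-density lipoprotein, was lower in KO (-1.14) with -0.92 in WT. Cd36, another scavenger receptor, had 11 and 8 reads in LPS-treated KO and WT and 0 in both untreated libraries.

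Of 19 listed paralogs of the 10 genes, 8 were tested, of which 1 was higher and 2 were lower with LPS in each genotype. Of all tested genes, 11.6% were higher and 12.0% lower in KO, and 11.2% higher and 10.1% lower in WT. The list medians were -0.37 in KO and -0.31 in WT, where those of all tested genes were -0.020 and -0.0039. Abca2, a lipid transporter related to Abca1, was lower in KO (log2 ratio -1.79) and WT (-1.76). Lpcat2, which makes platelet-activating factor, was higher in KO (1.35) and WT (1.37), and Mboat1 was lower in KO (-1.22) and WT (-1.39). Plin3, a lipid droplet coat protein related to Plin2, had ratios of 0.60 in KO and 0.60 in WT.

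Of 8 genes of the PPAR receptors and their targets, 4 were tested. Fabp4, a fatty acid carrier, had 83 reads in LPS-treated KO and 7 in untreated KO, and 86 in LPS-treated WT and 4 in untreated WT, and was called higher in both genotypes. Cpt1a, the gate of mitochondrial fatty acid oxidation, was lower in KO (log2 ratio -1.95) and WT (-1.74). Angptl4, an inhibitor of lipoprotein lipase, was lower with LPS in both genotypes (-3.48 and -2.14), and under LPS it had 14 reads in KO against 35 in WT (-1.39, -2.40 to -0.46). The Angptl4 LPS ratio in KO minus that in WT was also called lower, as were 1.84% of all tested genes. Ppard had ratios of 0.91 in KO and 0.88 in WT, and Pparg and Ppara had 0 reads in every library.

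All 8 genes of SREBP2 control, the feedback that raises sterol synthesis when cholesterol is short, were tested. None was called with LPS in KO and 1, Idi1, was lower in WT (-1.05) with -0.66 in KO. Of all tested genes, 23.6% were called with LPS in KO and 21.4% in WT. Insig1, which holds the SREBP2 complex back in the endoplasmic reticulum, had ratios of 0.65 in KO and 0.58 in WT, and Hmgcs1 had -0.47 in KO and -0.58 in WT. No gene of this list was called between genotypes. Under LPS all 8 log2 ratios of KO to WT lay above 0, 6 of them with intervals above 0 and none with an interval below, where 20.1% of all tested genes had intervals above 0 and the list's median was 0.15. For the LPS ratio in KO minus that in WT, all 8 also lay above 0. Of these, 4 had intervals above 0, beside 13.9% of all tested genes. Medians of all tested genes were 0.0013 for KO to WT under LPS and -0.010 for the difference of LPS ratios. These comparisons share the LPS-treated libraries.

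The genes whose log2 CPM over the 4 libraries lay nearest to that of Abca1, among the 8479 protein-coding genes that averaged 10 CPM or more, were Enpp4, Trim21 and Spp1. Their Euclidean distances were 0.063, 0.11 and 0.12, and their LPS log2 ratios were 2.37, 2.19 and 2.44 in KO and 2.48, 2.58 and 2.58 in WT. The nearest to Nr1h3 were ENSMUSG00000040502, Soat1 and Crybg1, at distances of 0.024, 0.090 and 0.092. The first is a membrane-associated ring finger gene whose symbol was turned into a date in the deposited tables. Soat1, which esterifies cholesterol in macrophages, stood at 262 CPM with LPS and 162 CPM without in KO, and at 358 CPM with LPS and 185 CPM without in WT. These distances rest on 4 libraries, and for Nr1h3 on 62 to 115 reads in each.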

How the data were processed

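Messenger RNA was selected with poly-T beads and reverse transcribed from random hexamers, per the labels' protocols. Tools named in the submitters' processing notes are HISAT2 2.0.5, CASAVA 1.8 and featureCounts 1.5.0-p3, with GRCm38 and mm10 as builds. The labels state no strand setting. The authors deposited a whole-number read count for each gene, without scaling, and FPKM, which equal that count over gene length and a constant per library. Log2 ratios used TMM factors from edgeR 4.0.16 (R 4.3.3) for genes averaging 1 CPM or more, with exact conditional 95% intervals (scipy 1.17.1), or delta-method intervals for differences of ratios. Where a library had 0 reads of a gene, 3 reads stood in for it in the ratio. The labels name no molecular identifiers, so copies of 1 molecule can be counted more than once, which the intervals leave out. The calling was tested on simulated libraries that varied by counting error only. They held no variation between cultures, so the simulation cannot show how calls from single libraries would repeat. By rule, the text names in each list up to 4 tested genes with the largest mean LPS ratio in size and up to 4 called between genotypes, and the genes nearest to Abca1 and Nr1h3; some genes that the rule names are not reported here. Untested genes, overlapping genes and cell type markers were named after their values were seen. The 10 genes and the lists were chosen with earlier results of these data known. DESeq2 1.42.0 gave an alternative scaling.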

Additional observations from a re-analysis of the deposited data

How the results depend on the processing

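With LPS, Abca1, Npc2 and Plin2 were called higher in both genotypes with DESeq2 size factors, with total counts, without a filter, with a filter at 10 CPM (where Nr1h3 was not tested), at the 1.5-fold size, with the whole interval beyond 2-fold, and with the deposited FPKM as log2(value + 1), which understates changes of low genes. The 1.5-fold size gave 6 of the 10 genes called with LPS in KO and 6 in WT, in place of 3 in each. Total counts gave 4 in each genotype, 3 higher and 1 lower. Over all tested genes they gave 989 higher and 2156 lower in KO and 975 and 1904 in WT, where TMM gave 1345 and 1398 in KO and 1309 and 1180 in WT. The genotype comparisons and the difference of LPS ratios gave 0 of the 10 genes under every one of these settings. Counts over all tested genes moved more. Untreated, KO over WT gave 134 higher and 100 lower, against 28 and 20 with the whole interval beyond 2-fold, 27 and 16 with the filter at 10 CPM, 61 and 46 with FPKM and 300 and 267 without a filter. Under LPS it gave 193 and 213, against 65 and 56, 43 and 58, 103 and 94, and 385 and 401 in the same order of settings. The difference of LPS ratios gave 138 and 214, against 12 and 27, 21 and 41, 132 and 124, and 253 and 343. Of the 50 single ratios, 16 moved beyond their counting interval under total counts. All 16 were LPS ratios, those of every gene but Nr1h3 and Apoe in both genotypes. No genotype ratio and no difference of LPS ratios moved under total counts. The LPS ratios in KO and WT became 2.01 and 2.20 for Abca1 and 1.19 and 1.57 for Npc2. They became -0.87 and -0.64 for Abcg1 and -0.34 and -0.86 for Mylip. The sizes of most LPS ratios given above thus depended on the scaling. Under FPKM 3 ratios moved (Abca1 with LPS at 1.66 in KO and 1.70 in WT, and Npc1 with LPS in WT at 0.83). Under the additive model 12 of 40 moved, those of Abcg1, Mylip and Npc2. None of the called ratios reversed under any alternative. With 3 mismatches in place of 2, the count of promoters with DR4 was 1 in place of 0.

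The additive model of genotype and LPS (edgeR's quasi-likelihood test, Benjamini-Hochberg adjustment over 11640 genes) left each gene 1 residual degree of freedom. That is the difference between the gene's LPS ratios, so KO and WT served as replicates of LPS. The test also shares error among genes, so its adjusted p-values do not rest on that difference alone. It had no replicate of any group and leaves out variation between cultures. It put 8 of the 10 genes under an adjusted p of 0.05 for LPS, beside 60.3% of all tested genes, the others being Mylip (adjusted p = 0.13) and Lpcat3 (adjusted p = 0.13). For genotype it put 0 of 10 there, beside 1.92% of all tested genes, with adjusted p between 0.18 for Abcg1 and 0.99 for Npc1. This model sets LPS-treated against untreated cells within each genotype. Beyond that model, no paired analysis was possible because each group held 1 library, so no replicate number could serve as a block, and no replicate could be left out. Depth limits Nr1h3 and Apoe most, at 62 to 115 and 105 to 259 reads.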
